A study of Mus musculus with 11 samples.

Results

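The levels of 70 mouse genes for axon guidance ligands and their receptors, of 27179 genes counted, were followed through mammary epithelial cells. They were chosen by symbol alone: all semaphorins, plexins, neuropilins, Eph receptors, ephrins, slits and Robo receptors in the table, netrin-1 and netrin-3 to netrin-5, the 4 Unc5 receptors, Dcc and Neo1. Of these, 35 were ligands and 35 receptors. RNA-seq was performed on 11 libraries to profile the cell populations of the mouse mammary gland, an outer basal layer around an inner luminal layer. Basal cells (CD24+CD29hi, enriched for mammary stem cells), LP cells (CD24+CD29loCD61+, enriched for luminal progenitors) and ML cells (CD24+CD29loCD61-, enriched for mature luminal cells) were sorted after removal of lineage-positive cells, with 3 libraries each. Mammosphere cells, which are Basal cells kept for 1 week in non-adherent culture, and the CommaD-βGeo line (CommaDB, an established mammary line from a mid-pregnancy Balb/c mouse) had 1 library each. All other cells came from wild-type virgin FVB/N females, given as 8 weeks old in the sample labels and as 8 to 10 weeks old in the series text. No group received a treatment, and the sort gates enrich for each population without making it pure.

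Axon guidance proteins are secreted or membrane-bound cues and the receptors that read them, first described in growing nerve fibres and used by epithelia for cell adhesion, sorting and branching. Secreted slits bind Robo receptors and netrins bind neogenin, Dcc and the Unc5 receptors, whereas ephrins are tethered to the cell surface and signal in both directions on contact with Eph receptors. Semaphorins bind plexins directly or, for most of the secreted class, through neuropilins. In the growing mammary duct, slits with Robo1, and netrin-1 with neogenin, are known to hold the basal and luminal layers together.

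Between 19958838 and 75795034 reads were counted per library, and levels are given as CPM, counts relative to the library total after scaling by TMM factors. The 9 basal marker genes summed to 19419 to 27161 CPM in Basal libraries against 88.4 to 423 CPM in luminal libraries, and the 8 luminal markers to 1368 to 1625 CPM against 14868 to 21427 CPM. The 9 endothelial markers, none of them at 0, summed to 64.1 to 125 CPM in Basal and 13.1 to 54.3 CPM in luminal libraries, with 7 of 9 higher in every Basal than in every luminal library. The 5 pericyte markers summed to 33.3 to 48.9 CPM in Basal and 3.95 to 14.1 CPM in luminal libraries, with none at 0 and 3 of 5 separated in the same way. The 6 fibroblast markers overlapped between Basal (582 to 863 CPM) and luminal libraries (285 to 1376 CPM), with none separated, and the part of these cells in the results was not tested. The 5 Schwann cell markers summed to 18.4 to 29.4 CPM in Basal and 111 to 172 CPM in luminal libraries, but 1 of them alone, *Mbp*, was lower in all Basal libraries. The 4 adipocyte markers, each at 0 in some sorted library, summed to 1.75 to 4.70 CPM in Basal and 0.0352 to 0.468 CPM in luminal libraries, with 2 of 4 higher in every Basal library. The submitted name of Basal replicate 1 contains p53 although its labels give wild type.

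Most guidance genes were detected. Of the 70 members, 58 exceeded 0.5 CPM in at least 3 libraries and were tested, 32 of the ligands and 26 of the receptors, and 44 exceeded it in all 9 sorted libraries. *Ephb1* and *Ntn3* were the 2 members over 0.5 CPM in every Basal library and in no luminal library. The 12 members below the filter were *Epha5*, *Epha6*, *Epha8*, *Epha10*, *Ntn5*, *Dcc*, *Unc5a*, *Unc5d*, *Plxnc1*, *Robo3*, *Sema5b* and *Slit1*. *Dcc*, the classical attractive netrin receptor, had 5 reads over all 9 sorted libraries. *Epha6* had 0 reads in the sorted libraries, which allows up to 3 reads in each. *Plxnc1*, the receptor of *Sema7a*, reached 0.916 CPM in LP replicate 1, its highest level.

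Compared per kilobase of exon (RPKM, from the scaled CPM), *Epha2* stood first among the receptors in all 3 sorted populations. Its mean was 144 RPKM in Basal, 204 in LP and 108 in ML cells, ahead of the plexin *Plxnb2* at 44.2, 50.1 and 75.5 RPKM. The leading ligands differed. In Basal cells *Efnb1* (66.0 ± 31.2 RPKM, SD, n = 3) and *Sema3c* (63.4 ± 11.4) stood first and did not differ beyond their spread. In LP cells *Efna1* (75.5 RPKM) and *Ntn1* (66.4) led, and in ML cells *Sema4c* (111 RPKM) and *Efna1* (71.9).

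**Figure D1:**
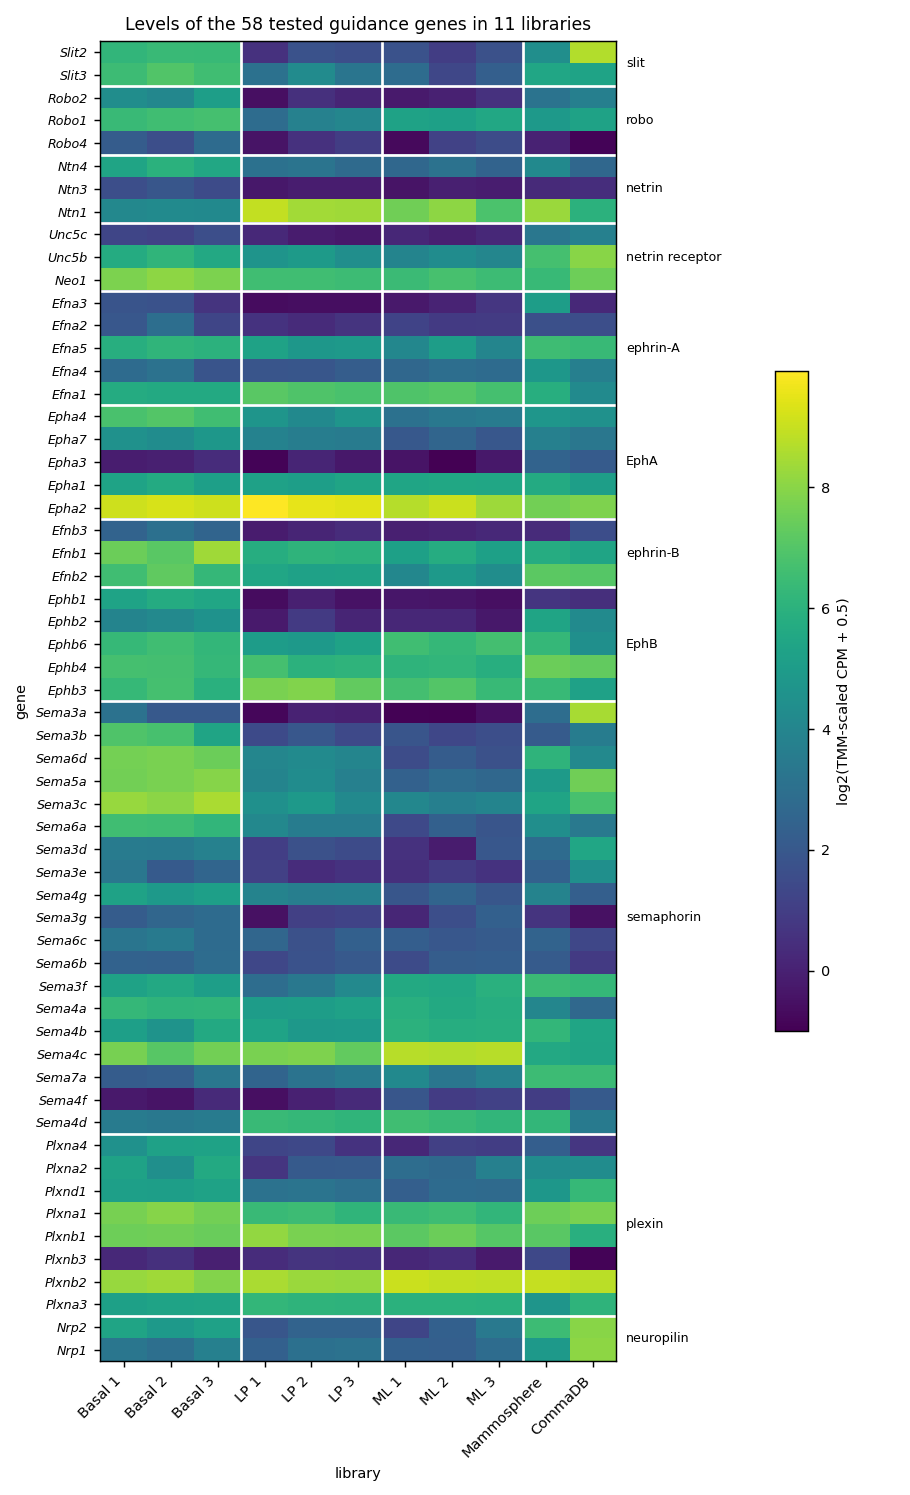
Levels of the 58 tested members in all 11 libraries, as colour for log2(TMM-scaled CPM + 0.5), with genes in rows by family and libraries in columns by cell population. Slits, *Robo2*, *Ephb1* and several semaphorins are bright in the 3 Basal columns and dark in the 6 luminal columns, and *Ntn1* shows the opposite, from 16.5 to 18.5 CPM in Basal and from 112 to 480.2 CPM in luminal libraries.

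Guidance genes were mostly higher in Basal than in luminal cells. At an adjusted p under 0.05 in edgeR's quasi-likelihood test, 41 of the 58 tested members (70.7%) were higher in Basal cells than in the mean of LP and ML cells, where 31.2% of all 15422 tested genes were called in that direction. Another 7 members (12.1%) were higher in luminal cells, against 30.5% of all genes, and 10 had no call. The median log2 fold change was 1.74 over the tested members and -0.01 over all genes. With the stricter limits used in the study (adjusted p under 0.001 and log2 fold change over 2), 25 members were higher in Basal cells (10.6% of all genes) and 2 in luminal cells (7.62%). In 36 of the 41 members the Basal and luminal libraries did not overlap, as in 80.3% of all genes called higher in Basal cells, the others being *Ephb6*, *Efna3*, *Nrp1*, *Sema3f* and *Sema3g*. Among the 7 luminal members 4 did not overlap (75.5% of all genes with that call), the others being *Ephb3*, *Plxnb2* and *Sema4c*. In bulk samples, fewer cells of a type and less RNA per cell cannot be told apart, which holds for every difference below. The direction within a library batch is fixed where libraries do not overlap. Of the 8 called members that overlapped, *Ephb6* and *Sema3f* did not keep their direction against both luminal libraries within batch 1, nor did *Ephb6*, *Nrp1*, *Plxnb2* and *Sema3f* within batch 2.

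**Figure D2:**
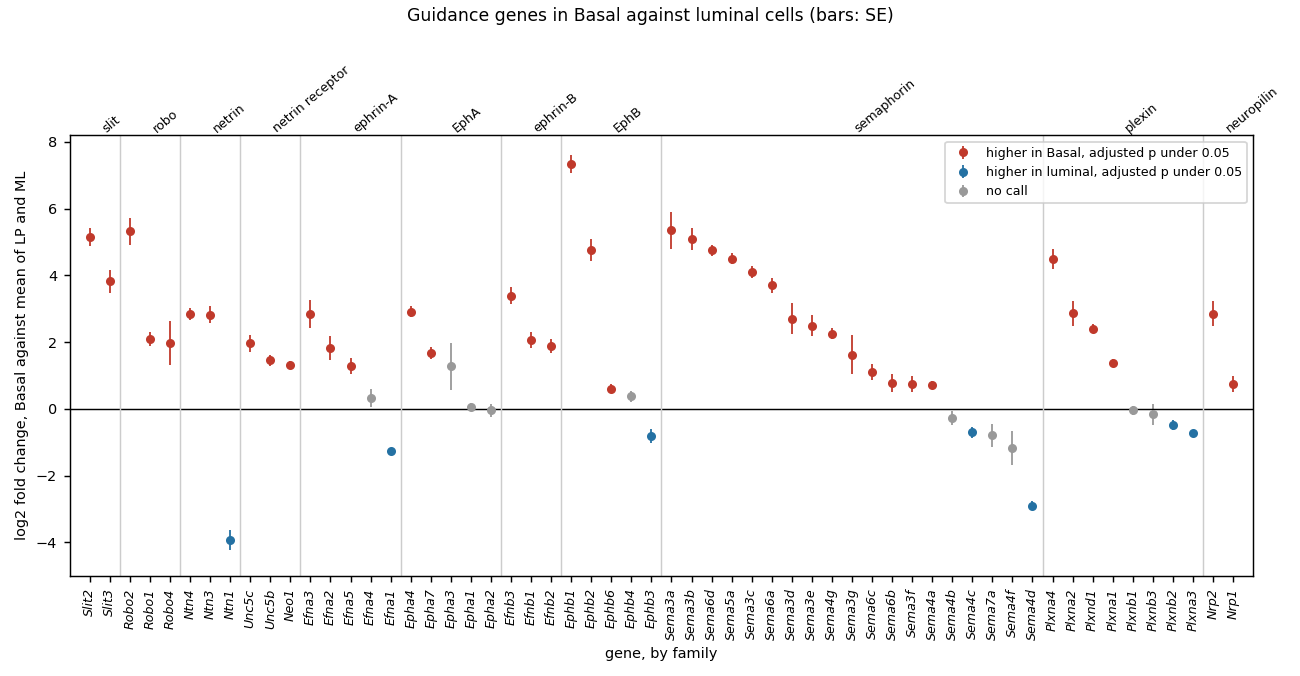
Log2 fold change of each tested member between Basal cells and the mean of LP and ML cells, with genes grouped by family along the horizontal axis and bars giving the SE. Positive values are higher in Basal cells. Points lie between 7.33 for *Ephb1* and -3.94 for *Ntn1*, and every tested slit, Robo receptor, ephrin-B, netrin receptor and neuropilin lies above 0.

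The sequences before the annotated starts of 3 members are shown because they ranked highest by fold change, *Ephb1* and *Slit2* towards Basal and *Plxna3* towards luminal cells, among named members with a single window near the 5′ end of the gene model. The RefSeq start lies at the edge of the gene model for *Ephb1* and inside it for *Slit2* and *Plxna3*. Each is the 250 bases before the start (RefSeq, GRCm38.p6), 5′ to 3′ on the gene's strand, at chr9:102354694-102354943 (minus strand) for *Ephb1*, chr5:47982905-47983154 (plus strand) for *Slit2* and chrX:74328816-74329065 (plus strand) for *Plxna3*. Capitals mark TGTGGT on either strand, the core word of RUNX factors, in *Ephb1* and *Plxna3*, and the TATA word TATAAA in *Slit2*.
Ephb1: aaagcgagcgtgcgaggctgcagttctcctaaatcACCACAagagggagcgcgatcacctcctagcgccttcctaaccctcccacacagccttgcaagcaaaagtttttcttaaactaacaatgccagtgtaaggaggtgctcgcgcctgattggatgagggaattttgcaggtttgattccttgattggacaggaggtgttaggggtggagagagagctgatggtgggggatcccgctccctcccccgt
Slit2: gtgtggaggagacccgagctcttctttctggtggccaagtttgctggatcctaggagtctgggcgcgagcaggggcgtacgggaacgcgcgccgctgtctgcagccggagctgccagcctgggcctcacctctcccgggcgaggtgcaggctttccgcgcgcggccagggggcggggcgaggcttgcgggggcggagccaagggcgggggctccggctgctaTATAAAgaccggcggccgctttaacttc
Plxna3: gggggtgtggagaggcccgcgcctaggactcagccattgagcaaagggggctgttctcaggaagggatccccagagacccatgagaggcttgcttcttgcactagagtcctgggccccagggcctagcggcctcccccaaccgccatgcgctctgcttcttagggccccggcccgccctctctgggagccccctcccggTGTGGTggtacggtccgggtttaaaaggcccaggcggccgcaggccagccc
TATAAA began 28 bases before the start in *Slit2*, whereas TGTGGT began 51 bases before the start in *Plxna3* and lay 215 bases before it, on the reverse strand, in *Ephb1*. Sequence before a start was held for 60 of the 70 members, and both strands of these 250 bases were searched. TGTGGT was found in 5 of 45 windows of the members higher in Basal cells (11.1%) and in 14.0% of all 32851 windows, and TATAAA in 4.44% and 12.4%. The AP-1 word TGANTCA was found in 2.22% and 6.75%. The E-box word CAGGTG was found in 11.1% and 17.2% of windows in the same order. For TEAD factors, GGAATG was found in 8.89% and 12.6%. For GATA factors, AGATAA was found in 2.22% and 9.99%. These 45 windows had a median GC content of 64.8%, against 52.4% in all windows. The words were chosen with the expression values known, and a match is a description of the sequence alone.

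Slits and their Robo receptors were both higher in Basal cells. *Slit2* (chr5:47981291-48307735, GRCm38), a secreted repellent cue, measured 72.2, 83.6 and 82.9 CPM in the 3 Basal libraries, 0.987, 2.88 and 2.61 CPM in LP and 2.85, 1.47 and 2.73 CPM in ML libraries, so that every Basal library lay far above every luminal one. Its log2 fold change was 5.15 ± 0.28 (SE, edgeR adjusted p = 2.2e-07). *Slit3*, its close relative, measured 90.2, 124 and 95.5 CPM in Basal, 8.00, 18.8 and 9.12 CPM in LP and 6.87, 2.03 and 4.42 CPM in ML libraries, a log2 fold change of 3.83 ± 0.35 (SE, edgeR adjusted p = 6.8e-06) without overlap. *Robo2* and *Robo1* are the receptors of these cues. *Robo2* measured 20.1, 16.4 and 34.5 CPM in Basal, 0.176, 0.935 and 0.587 CPM in LP and 0.367, 0.505 and 0.956 CPM in ML libraries and stayed under 1 CPM in all luminal libraries (log2 fold change 5.32 ± 0.41 SE, edgeR adjusted p = 1.9e-06). *Robo1* measured 83.0, 95.6 and 104 CPM in Basal, 6.80, 13.4 and 15.5 CPM in LP and 39.2, 36.2 and 46.5 CPM in ML libraries, a log2 fold change of 2.10 ± 0.21 (SE, edgeR adjusted p = 1.2e-05). Unlike *Robo2*, it kept an intermediate level in ML cells.

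*Robo4*, a receptor known from blood vessels, was low throughout. It measured 4.02, 2.63 and 6.61 CPM in Basal, 0.247, 0.991 and 1.49 CPM in LP and 0.113, 1.74 and 2.37 CPM in ML libraries, and the Basal values lay above the luminal ones with a gap of under 1 CPM. Its log2 fold change of 1.99 ± 0.66 (SE, edgeR adjusted p = 0.024) lost its call without Basal replicate 1 (2.06, adjusted p = 0.0531) and without Basal replicate 3 (1.60, adjusted p = 0.107). Basal replicate 3, with the highest *Robo4*, also had the highest sum of the 9 endothelial markers (125 CPM, against 64.1 and 71.4 CPM in the other Basal libraries). The part of endothelial cells in the *Robo4* difference was not tested.

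Netrin-1 and its 3 tested receptors of the chosen set lay on opposite sides. *Ntn1* (chr11:68209364-68386826), a secreted cue with the largest difference towards luminal cells among the members, measured 16.5, 18.5 and 17.5 CPM in Basal libraries, 480.2, 337 and 326 CPM in LP and 187, 269.6 and 112 CPM in ML libraries. All 6 luminal libraries were above 100 CPM and all Basal libraries under 20 CPM, a log2 fold change of -3.94 ± 0.30 (SE, edgeR adjusted p = 1.8e-06). The other netrins went the other way. *Ntn4*, a basement membrane netrin that binds laminin, measured 41.3, 62.7 and 46.9 CPM in Basal, 7.93, 8.83 and 6.30 CPM in LP and 5.79, 8.11 and 5.05 CPM in ML libraries (log2 fold change 2.84 ± 0.19 SE, edgeR adjusted p = 7.0e-07). *Ntn3* did not exceed 3.33 CPM in any sorted library and differed by 2.83 ± 0.26 (SE, edgeR adjusted p = 6.2e-06).

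All 3 tested netrin receptors were higher in Basal cells. *Neo1*, encoding neogenin, measured 219, 268 and 219 CPM in Basal, 96.1, 94.5 and 90.4 CPM in LP and 88.0, 108 and 90.6 CPM in ML libraries, with nearly equal levels in both luminal populations and a log2 fold change of 1.32 ± 0.11 (SE, edgeR adjusted p = 3.7e-06). *Unc5b*, a repulsive and survival-dependence receptor, measured 52.6, 70.8 and 47.2 CPM in Basal, 25.02, 30.8 and 20.5 CPM in LP and 14.9, 19.3 and 15.7 CPM in ML libraries (log2 fold change 1.46 ± 0.16 SE, edgeR adjusted p = 2.8e-05). The related *Unc5c* was much lower, at 1.73 to 2.56 CPM in Basal and 0.320 to 0.705 CPM in luminal libraries (log2 fold change 1.96 ± 0.26 SE, edgeR adjusted p = 9.6e-05). Per kilobase of exon, Basal cells held 3.05 RPKM of *Ntn1* and 31.9 RPKM of *Neo1*, and LP cells 66.4 RPKM of *Ntn1* and 12.7 RPKM of *Neo1*.

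The B class of ephrins was higher in Basal cells, while its receptors divided. *Efnb2*, a transmembrane ephrin, measured 95.5, 153 and 78.0 CPM in Basal, 43.6, 38.0 and 38.7 CPM in LP and 16.2, 28.3 and 19.8 CPM in ML libraries, without overlap (log2 fold change 1.89 ± 0.22 SE, edgeR adjusted p = 3.3e-05). *Efnb1* and *Efnb3* were higher by 2.06 ± 0.25 (SE, edgeR adjusted p = 4.4e-05) and 3.39 ± 0.26 (SE, edgeR adjusted p = 1.7e-06) on the log2 scale. *Ephb1*, a receptor of all 3, measured 39.4, 52.7 and 44.0 CPM in Basal libraries, 0.141, 0.468 and 0.213 CPM in LP and 0.283, 0.266 and 0.182 CPM in ML libraries. With no luminal library over 0.468 CPM, its log2 fold change of 7.33 ± 0.26 (SE, edgeR adjusted p = 3.5e-08) was the largest of the members. *Ephb2* was also far higher in Basal cells, at 14.9, 17.2 and 22.9 CPM in Basal, 0.352, 1.29 and 0.587 CPM in LP and 0.678, 0.651 and 0.319 CPM in ML libraries (log2 fold change 4.75 ± 0.33 SE, edgeR adjusted p = 9.0e-07).

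The other EphB receptors overlapped between Basal and luminal libraries. *Ephb4*, known as the partner of *Efnb2* in vessels, measured 103, 101 and 76.9 CPM in Basal, 105, 64.9 and 67.7 CPM in LP and 68.3, 72.3 and 57.5 CPM in ML libraries, and the ranges overlapped (log2 fold change 0.37 ± 0.17 SE, edgeR adjusted p = 0.083). It was called without TMM scaling (0.44, adjusted p = 0.0396), without Basal replicate 3 (0.51, adjusted p = 0.0439) and without LP replicate 1 (0.50, adjusted p = 0.0113). *Ephb3* was highest in LP cells, at 211, 229 and 156 CPM, against 78.4, 105 and 61.2 CPM in Basal and 100.3, 128 and 82.5 CPM in ML libraries, and was called towards luminal cells (log2 fold change -0.82 ± 0.21 SE, edgeR adjusted p = 0.0065) with overlap between Basal and ML libraries. *Ephb6*, which lacks kinase activity, was lowest in LP cells (28.9 to 38.4 CPM) and overlapped between Basal (74.1 to 96.2 CPM) and ML libraries (77.5 to 100.1 CPM), with a log2 fold change of 0.60 ± 0.13 (SE, edgeR adjusted p = 0.003) against the luminal mean.

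Among the GPI-anchored A class, *Efna1* was the exception to the Basal majority. *Efna1* measured 51.6, 48.7 and 49.6 CPM in Basal, 139, 122 and 112 CPM in LP and 119, 130.1 and 105 CPM in ML libraries, so that every luminal library exceeded every Basal one at more than 100 CPM (log2 fold change -1.28 ± 0.12 SE, edgeR adjusted p = 6.4e-06). *Efna2*, *Efna3* and *Efna5* were higher in Basal cells by 1.81 ± 0.36 (SE, edgeR adjusted p = 0.0014), 2.86 ± 0.42 (SE, edgeR adjusted p = 0.00018) and 1.29 ± 0.23 (SE, edgeR adjusted p = 0.00078) on the log2 scale, and *Efna4* had no call. Without Basal replicate 3, *Efna4* gained a Basal call (0.63, edgeR adjusted p = 0.0126). Part of the exons of *Efna3* (14.1%) is shared with the antisense gene *Gm15998* and 10.5% of those of *Efna4* with another antisense gene, overlaps on the opposite strand also touch *Plxna1* (10.71%), *Sema4c* (7.27%) and *Epha1* (6.01%), and the use of strand in counting is not given in the sources used here. *Epha2*, the receptor best known for binding ephrin-A1 on epithelial cells, measured 541, 616 and 538 CPM in Basal, 972, 728 and 701 CPM in LP and 422, 536 and 321 CPM in ML libraries. Basal libraries lay between the luminal populations, and the log2 fold change against their mean was -0.05 ± 0.18 (SE, edgeR adjusted p = 0.84).

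The EphA receptors with a Basal call were *Epha4* and *Epha7*, which bind most A-class ephrins. *Epha4* measured 109, 129 and 95.6 CPM in Basal, 25.1, 17.7 and 25.2 CPM in LP and 7.83, 9.89 and 11.2 CPM in ML libraries, a stepwise order without overlap (log2 fold change 2.92 ± 0.16 SE, edgeR adjusted p = 2.0e-07). *Epha7* followed the same order at lower levels (log2 fold change 1.66 ± 0.18 SE, edgeR adjusted p = 2.3e-05). *Epha1* was nearly flat, with 34.7 to 50.7 CPM over the 9 sorted libraries, and *Epha3* stayed under 0.8 CPM in all of them.

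Of the 19 semaphorins tested, 14 were higher in Basal cells, 2 in luminal cells and 3 had no call. The secreted class 3 accounted for 7 of the 14. *Sema3c*, the most abundant of them, measured 303, 264 and 375 CPM in Basal, 21.6, 29.9 and 17.8 CPM in LP and 16.0, 12.7 and 14.7 CPM in ML libraries (log2 fold change 4.10 ± 0.17 SE, edgeR adjusted p = 5.9e-08). *Sema3b* measured 119, 107 and 40.6 CPM in Basal, 2.22, 3.42 and 2.19 CPM in LP and 3.14, 2.01 and 2.55 CPM in ML libraries, with Basal replicate 3 lowest of the Basal libraries yet far above every luminal one (log2 fold change 5.09 ± 0.32 SE, edgeR adjusted p = 5.0e-07). *Sema3a*, a classical repellent, was low in sorted cells. It measured 8.27, 3.59 and 3.60 CPM in Basal, 0.0705, 0.524 and 0.480 CPM in LP and 0.0283, 0 and 0.182 CPM in ML libraries, a log2 fold change of 5.35 ± 0.55 (SE, edgeR adjusted p = 1.5e-05) that rests on few luminal reads. *Sema3d* and *Sema3e* were higher by 2.71 ± 0.48 (SE, edgeR adjusted p = 0.00064) and 2.49 ± 0.31 (SE, edgeR adjusted p = 6.3e-05). *Sema3f*, at 39.1, 48.3 and 34.4 CPM in Basal, 6.98, 9.97 and 17.2 CPM in LP and 48.7, 46.0 and 61.3 CPM in ML libraries, was low in LP cells alone, and its Basal call (log2 fold change 0.74 ± 0.24 SE, edgeR adjusted p = 0.02) was lost without Basal replicate 2 (0.61, adjusted p = 0.0926). *Sema3g* had 4.07 to 6.53 CPM in Basal and 0.211 to 4.64 CPM in luminal libraries, and its call (log2 fold change 1.62 ± 0.58 SE, edgeR adjusted p = 0.033) was lost without any 1 of the 3 Basal replicates or ML replicate 2 (1.48 to 1.80, adjusted p = 0.0509 to 0.0992).

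The transmembrane semaphorins of classes 5 and 6 shared the Basal side. *Sema6d* measured 197, 210.4 and 175 CPM in Basal, 15.6, 18.5 and 15.4 CPM in LP and 2.40, 4.06 and 2.78 CPM in ML libraries (log2 fold change 4.75 ± 0.16 SE, edgeR adjusted p = 2.3e-08). *Sema5a*, whose product carries thrombospondin repeats, measured 194, 210.0 and 246 CPM in Basal, 14.7, 19.6 and 13.0 CPM in LP and 4.78, 6.85 and 5.69 CPM in ML libraries (log2 fold change 4.50 ± 0.16 SE, edgeR adjusted p = 3.5e-08). Both fell in 2 clear steps from Basal to LP to ML cells, and *Sema6a* did the same (log2 fold change 3.70 ± 0.22 SE, edgeR adjusted p = 3.2e-07). *Sema6c* and *Sema6b* differed by less, 1.10 ± 0.24 (SE, edgeR adjusted p = 0.0027) and 0.78 ± 0.26 (SE, edgeR adjusted p = 0.026), and the *Sema6b* call was lost without Basal replicate 3 (0.61, adjusted p = 0.108).

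Class 4 divided. *Sema4d*, a ligand of B-class plexins first known from lymphocytes, measured 11.1, 9.92 and 11.3 CPM in Basal, 84.9, 76.8 and 71.3 CPM in LP and 95.4, 84.8 and 73.6 CPM in ML libraries (log2 fold change -2.91 ± 0.13 SE, edgeR adjusted p = 8.8e-08). Every luminal library was more than 6 times every Basal one. The 8 blood marker genes summed to 7.77 to 10.9 CPM in Basal and 2.47 to 12.2 CPM in luminal libraries, with 3 of the 8 at 0 in some library. Of the 5 blood markers tested, 1 was called higher in Basal cells and 1 in luminal cells. The part of blood cells in the *Sema4d* difference was not tested. *Sema4c* measured 202, 137 and 191 CPM in Basal, 208, 221 and 159 CPM in LP and 428, 411 and 433 CPM in ML libraries, so that its luminal call (-0.71 ± 0.16 SE, edgeR adjusted p = 0.003) came with overlapping Basal and LP ranges. *Sema4a* and *Sema4g* were higher in Basal cells by 0.72 ± 0.10 (SE, edgeR adjusted p = 0.00015) and 2.26 ± 0.17 (SE, edgeR adjusted p = 1.6e-06), and *Sema4b* and *Sema4f* had no call. *Sema4f* gained a luminal call by DESeq2 (-1.18, adjusted p = 0.0467) and, by edgeR, without Basal replicate 3 (-1.75, adjusted p = 0.0286) or LP replicate 1 (-1.37, adjusted p = 0.0316). *Sema4b* gained one by edgeR without Basal replicate 3 (-0.55, adjusted p = 0.0452). The GPI-anchored *Sema7a* measured 4.03 to 9.55 CPM in Basal and 5.32 to 17.9 CPM in luminal libraries (-0.79 ± 0.34 SE, edgeR adjusted p = 0.063), with a luminal call without Basal replicate 3 (-1.29, adjusted p = 0.0072), LP replicate 1 or ML replicate 2, without the filter (-0.81, adjusted p = 0.048) and by DESeq2 (-0.79, adjusted p = 0.0342).

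Of the plexins, the transmembrane receptors of semaphorins, 4 of 8 tested were higher in Basal cells and 2 in luminal cells. *Plxna4* measured 22.4, 37.5 and 38.5 CPM in Basal, 1.903, 2.06 and 1.01 CPM in LP and 0.650, 1.62 and 1.46 CPM in ML libraries (log2 fold change 4.49 ± 0.30 SE, edgeR adjusted p = 8.0e-07), and *Plxna2*, *Plxnd1* and *Plxna1* were higher by 2.86 ± 0.38 (SE, edgeR adjusted p = 0.0001), 2.40 ± 0.14 (SE, edgeR adjusted p = 2.7e-07) and 1.38 ± 0.12 (SE, edgeR adjusted p = 5.0e-06). *Plxna3* was on the other side. It measured 36.8, 40.4 and 41.7 CPM in Basal, 75.3, 68.5 and 67.2 CPM in LP and 61.8, 62.8 and 60.5 CPM in ML libraries, a small but non-overlapping difference (log2 fold change -0.73 ± 0.10 SE, edgeR adjusted p = 8.7e-05). *Plxnb2* overlapped at 239 to 328 CPM in Basal and 306 to 529 CPM in luminal libraries, with the call (log2 fold change -0.48 ± 0.14 SE, edgeR adjusted p = 0.014) lost without Basal replicate 3 (-0.34, adjusted p = 0.0641), and *Plxnb1* and *Plxnb3* had none.

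Neuropilins, the co-receptors of class 3 semaphorins, were both higher in Basal cells, to different degrees. *Nrp2* measured 41.7, 28.5 and 37.5 CPM in Basal, 3.31, 5.07 and 5.12 CPM in LP and 1.95, 4.59 and 10.2 CPM in ML libraries, without overlap (log2 fold change 2.86 ± 0.37 SE, edgeR adjusted p = 7.8e-05). *Nrp1* measured 9.26, 7.41 and 13.2 CPM in Basal, 4.58, 7.67 and 8.16 CPM in LP and 4.63, 4.42 and 6.74 CPM in ML libraries, with Basal replicate 2 inside the LP range. Its call (log2 fold change 0.74 ± 0.23 SE, edgeR adjusted p = 0.018) was lost without Basal replicate 3 (0.50, adjusted p = 0.0973).

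Ligands were next matched to receptors by a list of 93 pairs, of which 65 had both genes tested. The 45 ephrin-A and 15 ephrin-B pairs join every ephrin with every Eph receptor of its class. They were not selected for known binding of each pair, and pairs across the classes were not listed. Both genes were higher in Basal cells in 32 pairs, both were higher in luminal cells in 2, and the genes lay on opposite sides in 9. In 19 pairs 1 gene was called and in 3 none. All 4 tested slit pairs and 13 of 18 semaphorin pairs had both genes higher in Basal cells, such as *Slit2* with *Robo2* and *Sema3c* with *Nrp2*. All 3 tested netrin pairs lay on opposite sides, with luminal *Ntn1* against Basal *Neo1*, *Unc5b* and *Unc5c*. The list of pairs held *Ntn1* as the only netrin, so this is 1 ligand counted 3 times, and *Ntn3* and *Ntn4*, higher in Basal cells like these receptors, entered no pair. The other 6 opposite pairs were luminal *Efna1* with Basal *Epha4* and *Epha7*, Basal *Efnb1*, *Efnb2* and *Efnb3* with luminal *Ephb3*, and Basal *Sema4g* with luminal *Plxnb2*. The 2 luminal pairs were *Sema4c* and *Sema4d* with *Plxnb2*. Pairs share genes and are not independent, so these are counts without a test. Among the tested genes, 24 of 32 ligands and 17 of 26 receptors were higher in Basal cells. Such shares alone give many pairs with both genes higher there, and no particular matching is read from the counts. Under the stricter limits 15 pairs had both genes higher in Basal cells and 0 lay on opposite sides.

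**Figure D3:**
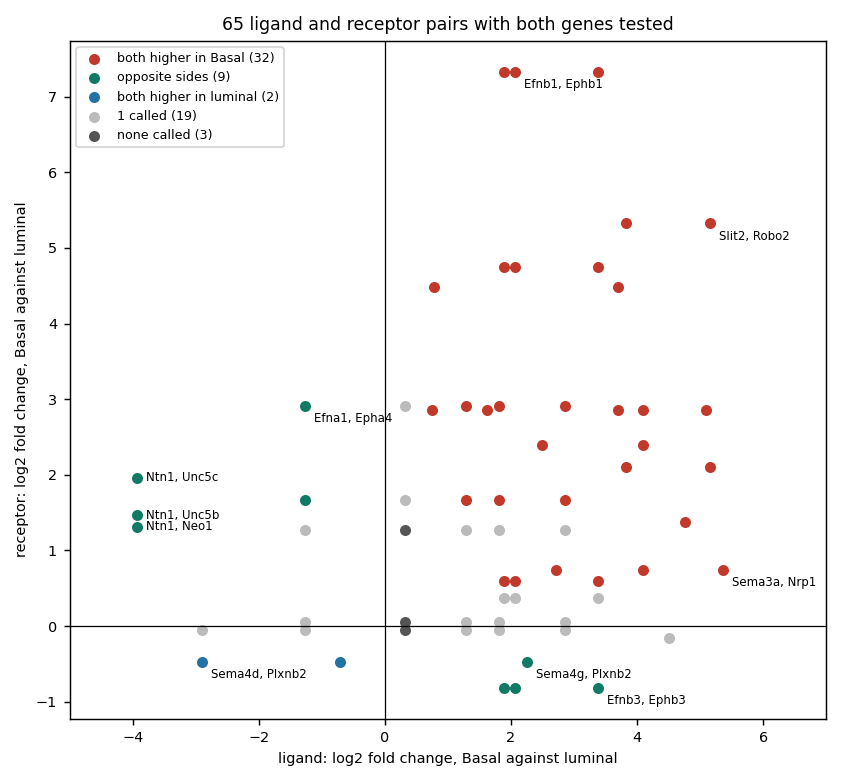
Log2 fold change between Basal and luminal cells of the ligand (horizontal axis) and of the receptor (vertical axis) for each of 65 pairs, coloured by the calls of both genes. The 3 *Ntn1* pairs stand at the far left, at -3.94 for the ligand and 1.32 to 1.96 for the receptors, while 32 pairs fill the upper right.

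The sides were also read against each luminal population alone, comparisons that share the Basal libraries. Against LP cells 40 members were higher in Basal cells (29.4% of all genes) and 5 in LP cells (28.0%), which were *Ntn1*, *Sema4d*, *Efna1*, *Ephb3* and *Plxna3*. Against ML cells 36 were higher in Basal cells (28.9%) and 9 in ML cells (29.7%), which were *Ntn1*, *Sema4d*, *Efna1*, *Plxna3*, *Plxnb2*, *Sema4b*, *Sema4c*, *Sema4f* and *Sema7a*. Over 18 alternative settings, 33 of these 36 and 7 of these 9 were called in every one. The *Sema4b* and *Sema7a* calls were each lost without Basal replicate 1, Basal replicate 2 or ML replicate 1 (edgeR adjusted p = 0.0794 to 0.0892). Under the stricter limits 23 members were higher in Basal than LP cells (9.64% of all genes) and 2 in LP cells (7.15%), and 23 were higher in Basal than ML cells (10.2%) and 2 in ML cells (8.09%). *Ntn1* differed by -4.44 ± 0.32 (SE, edgeR adjusted p = 2.3e-06) against LP and -3.44 ± 0.31 (SE, edgeR adjusted p = 7.4e-06) against ML cells, and *Sema4d* by -2.85 ± 0.14 (SE, edgeR adjusted p = 3.4e-07) and -2.97 ± 0.14 (SE, edgeR adjusted p = 2.2e-07). *Slit2* and *Robo2* differed from both luminal populations by similar amounts, 5.19 ± 0.38 (SE, edgeR adjusted p = 2.5e-06) and 5.12 ± 0.38 (SE, edgeR adjusted p = 2.1e-06) for *Slit2* and 5.29 ± 0.54 (SE, edgeR adjusted p = 2.1e-05) and 5.35 ± 0.54 (SE, edgeR adjusted p = 1.7e-05) for *Robo2*. With library batch as a block, *Epha2* (-0.65, edgeR adjusted p = 0.0187), *Plxnb1* (-0.45, adjusted p = 0.0372) and *Nrp1* (0.69, adjusted p = 0.0434) gained a call against LP cells. Against ML cells *Robo4* (2.39, adjusted p = 0.0158), *Sema3g* (1.70, adjusted p = 0.01) and *Sema6b* (0.75, adjusted p = 0.0273) gained one under the block and *Sema7a* lost it (-1.14, adjusted p = 0.0543).

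In 35 of the 58 tested members Basal cells were higher than both luminal populations (22.6% of all genes), and 15 of these also differed between LP and ML cells. The order Basal, LP, ML held in 11 members (3.07% of all genes), *Epha4*, *Epha7*, *Efnb2*, *Unc5b*, *Plxnd1*, *Sema3c*, *Sema4g*, *Sema5a*, *Sema6a*, *Sema6d* and *Slit3*. The order Basal, ML, LP held in 4 (2.39%), *Efna3*, *Plxna2*, *Robo1* and *Sema4a*. The first count fell to 6 without LP replicate 2 and to 7 without ML replicate 1 or without TMM scaling. The second fell to 2 by limma voom and without Basal replicate 1, LP replicate 1 or 2 or ML replicate 3. Without both sorted batch 3 libraries, an omission chosen after seeing the data, the second count was 1. The LP and ML calls of *Plxnd1*, *Unc5b* and *Sema3c* were lost without LP replicate 2 (adjusted p = 0.118, 0.128 and 0.101), without ML replicate 1 or 3 and without TMM scaling, among other settings, and that of *Efna3* without any 1 of the LP replicates or ML replicate 3.

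LP and ML cells, in which the 6 luminal progenitor markers summed to 7618 to 10357 CPM and 940 to 3046 CPM, differed in fewer guidance genes. The 7 mature luminal markers summed to 751 to 1853 CPM in LP and 4484 to 7077 CPM in ML libraries. By edgeR, 15 members were higher in LP cells (14.3% of all genes) and 10 in ML cells (17.5%), and 33 had no call. The counts fell to 8 and 6 without ML replicate 1, and 5 were higher in ML cells without LP replicate 2. With the stricter limits 1 member remained, *Sema6d*, higher in LP cells (0.441% of all genes), and 0 in ML cells (0.428%). The LP and ML libraries did not overlap in any of the 25 called members, nor in 97.3% of all genes called between them.

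Among called members over 1 CPM in the higher population, the largest differences towards LP cells were those of transmembrane semaphorins and an Eph receptor. *Sema3a*, under that level, differed by 3.16 ± 1.12 (SE, edgeR adjusted p = 0.056) without a call, and was called without the filter and without Basal replicate 1, LP replicate 1 or ML replicate 3. *Sema6d*, given above, was 15.4 to 18.5 CPM in LP and 2.40 to 4.06 CPM in ML libraries, a log2 fold change of 2.40 ± 0.20 (SE, edgeR adjusted p = 0.0007). *Sema6a* measured 96.0, 92.4 and 72.1 CPM in Basal, 16.8, 11.4 and 11.6 CPM in LP and 2.15, 4.55 and 3.19 CPM in ML libraries (1.99 ± 0.27 SE, edgeR adjusted p = 0.0011). *Sema4g*, a class 4 ligand of *Plxnb2*, measured 38.4, 29.7 and 35.8 CPM in Basal, 14.5, 12.2 and 12.7 CPM in LP and 3.31, 5.25 and 3.32 CPM in ML libraries (1.71 ± 0.21 SE, edgeR adjusted p = 0.00089). *Epha7* measured 22.2, 19.1 and 26.7 CPM in Basal, 13.9, 11.7 and 11.2 CPM in LP and 3.48, 5.46 and 3.46 CPM in ML libraries (1.55 ± 0.23 SE, edgeR adjusted p = 0.0014). Each of these 4 was lowest in ML cells and highest in Basal cells.

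Smaller LP calls included *Ntn1* (1.01 ± 0.28 SE, edgeR adjusted p = 0.022), *Epha2* (0.91 ± 0.21 SE, edgeR adjusted p = 0.01), *Epha4* (1.23 ± 0.19 SE, edgeR adjusted p = 0.0019) and *Efnb2* (0.90 ± 0.26 SE, edgeR adjusted p = 0.027). The *Ntn1* call was lost without LP replicate 1 (0.83, adjusted p = 0.0733) and without ML replicate 1 (0.99, adjusted p = 0.0712), and that of *Efnb2* without LP replicate 1, 2 or ML replicate 1 or 3 and without TMM scaling (0.73, adjusted p = 0.0513). *Slit3* was called (1.47 ± 0.44 SE, edgeR adjusted p = 0.028) but not with library batch as a block (1.45, adjusted p = 0.0517), nor without LP replicate 2 (0.99, adjusted p = 0.113) or ML replicate 2 or 3.

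Towards ML cells, the secreted *Sema3f* differed most, by -2.20 ± 0.30 (SE, edgeR adjusted p = 0.0011) for LP against ML, with every ML library above every LP library. *Sema4f*, a low class 4 semaphorin, measured 0.339, 0.239 and 0.734 CPM in Basal, 0.176, 0.505 and 0.747 CPM in LP and 3.33, 1.39 and 1.64 CPM in ML libraries (-2.19 ± 0.58 SE, edgeR adjusted p = 0.019), a call lost without LP replicate 1 or 2 or ML replicate 1. *Robo1* was higher in ML than in LP cells (-1.77 ± 0.26 SE, edgeR adjusted p = 0.0015), while its relative *Robo2* stayed under 1 CPM in both. *Plxna2*, the receptor of *Sema6a*, measured 38.7, 21.0 and 49.8 CPM in Basal, 1.09, 3.78 and 3.90 CPM in LP and 7.04, 6.16 and 12.9 CPM in ML libraries (-1.56 ± 0.49 SE, edgeR adjusted p = 0.035). Its call was lost without Basal replicate 1 and without each LP or ML replicate but LP replicate 3 and ML replicate 2 (adjusted p = 0.0529 to 0.107). *Sema6a* and *Plxna2* thus lay on opposite sides between LP and ML cells and on the same side between Basal and luminal cells.

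**Figure D4:**
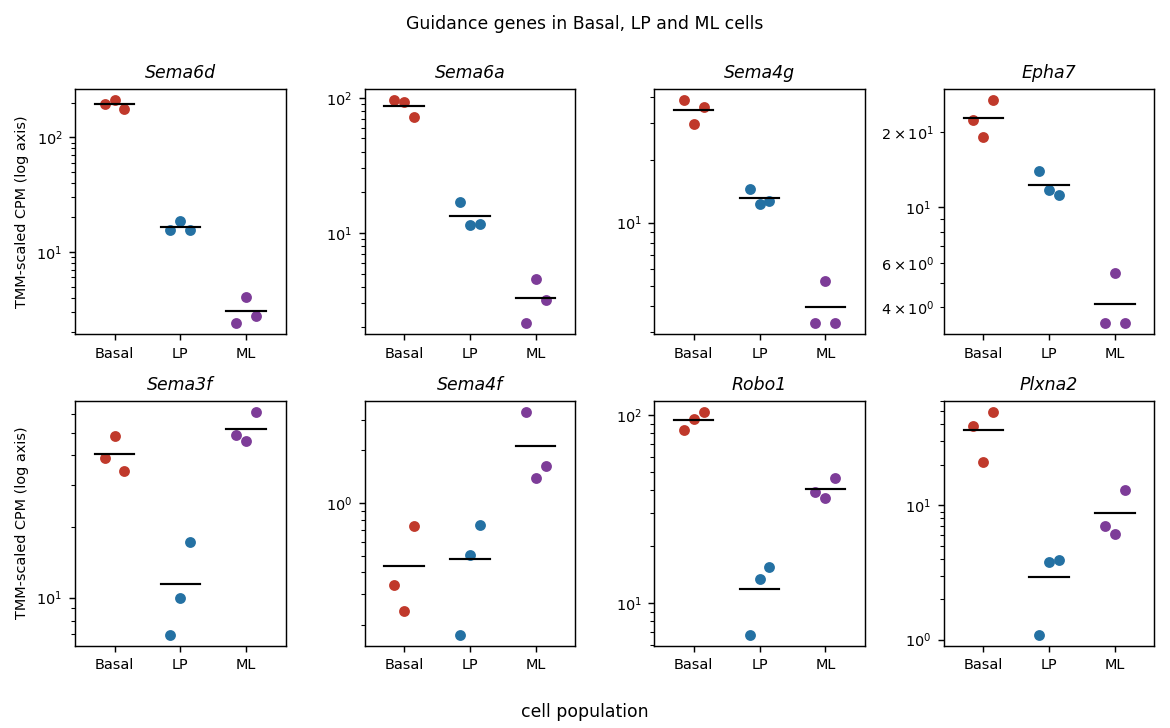
TMM-scaled CPM (log axis) of 8 members in each library of Basal, LP and ML cells, with a line at the mean of each population. The 4 upper genes fall from Basal to LP to ML cells, and the 4 lower genes are higher in every ML than in every LP library.

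Genes that act downstream of these receptors are counted beside shares of 31.2% (higher in Basal) and 30.5% (higher in luminal cells) over all genes, and nothing particular to them is read from the counts. Of 16 tested genes of semaphorin signalling, 7 were higher in Basal cells, 6 in luminal cells and 3 had no call, with a median log2 fold change of 0.27. *Dpysl3*, a collapsin response mediator, had a log2 fold change of 6.02 ± 0.26 (SE, edgeR adjusted p = 6.9e-08), whereas *Met*, a growth factor receptor that associates with B-class plexins, had a log2 fold change of -2.14 ± 0.31 (SE, edgeR adjusted p = 0.00017). Of 15 genes of Eph and ephrin signalling, 5 were higher in Basal and 7 in luminal cells (median -0.02). *Ngef*, encoding the exchange factor ephexin, had a log2 fold change of -4.15 ± 0.16 (SE, edgeR adjusted p = 3.9e-08), and *Vav3*, another exchange factor, had a log2 fold change of 2.00 ± 0.23 (SE, edgeR adjusted p = 3.0e-05). Of 18 genes of slit and netrin signalling, 6 were higher in Basal and 4 in luminal cells (median 0.24). *Dscam*, a further netrin receptor outside the chosen set, was higher in luminal cells like *Ntn1* itself, with 0.546 to 0.817 CPM in Basal, 9.65 to 21.4 CPM in LP and 78.8 to 102 CPM in ML libraries and a log2 fold change of -5.90 ± 0.33 (SE, edgeR adjusted p = 2.4e-07).

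The cultured cells were 1 library each, and going by its submitted name the mammosphere RNA may come from more than 1 culture. Their values carry no test, and the intervals given cover counting error only. In the mammosphere library 15 of the 58 tested members lay above all 9 sorted libraries (19.8% of all tested genes) and 5 below them (19.3%). In CommaDB 16 lay above (26.7%) and 13 below (27.1%). Of the 41 members called higher in Basal cells, 28 lay below the lowest Basal library in mammosphere cells, where 73.4% of all genes with that call did, and 26 in CommaDB (56.0%). At or below the highest luminal library lay 12 of the 41 in mammosphere cells (49.3% of all genes with that call) and 16 in CommaDB (41.8%). CommaDB differed from the sorted cells in strain and in its mid-pregnancy origin as well as in culture. It was also in library batch 3, which held no Basal library, and these cannot be told apart. The mammosphere library was in batch 1 with Basal replicate 1, whereas Basal replicates 2 and 3 were in batch 2. The 6 fibroblast markers summed to 2409 CPM in the mammosphere library and 3667 CPM in CommaDB, and the 5 pericyte markers to 210.0 and 342 CPM, above all sorted libraries in each case, and the part of such cells was not tested. In the same order, the 9 basal markers summed to 5487 and 1622 CPM, between the Basal and luminal ranges. The 8 luminal markers summed to 3946 and 368 CPM, against 1368 to 1625 CPM in Basal libraries. The 6 luminal progenitor markers summed to 1795 and 75.4 CPM, against 147 to 175 CPM in Basal libraries. The part of these lineage shifts in the member values was not tested.

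Mammosphere cells stood inside the Basal range in some guidance genes and far from it in others. Inside it were, for example, *Efnb2* at 143 CPM (Basal 78.0 to 153 CPM) and *Ephb6* at 77.3 CPM (Basal 74.1 to 96.2 CPM). *Ephb1*, at 1.13 CPM (95% exact Poisson interval 0.836 to 1.49), lay far below all 3 Basal libraries but above every luminal library (at most 0.468 CPM). *Ephb2* stood at 41.3 CPM, above all 3 Basal libraries. *Slit2* was 20.7 CPM, between the Basal and luminal ranges. *Ntn1*, low in Basal cells, was 309 CPM, inside the luminal range. Members furthest above all sorted libraries were *Unc5a* at 5.23 CPM (4.58 to 5.94), *Efna3* at 33.8 CPM (32.1 to 35.5), *Slit1* at 3.60 CPM (3.07 to 4.21) and *Epha3* at 5.05 CPM (4.41 to 5.75). *Unc5a* and *Slit1*, a receptor and a secreted cue of the nervous system, thus had 232 and 160 reads here and at most 18 and 17 in any sorted library. Furthest below were *Sema4c* at 47.4 CPM, *Sema4a* at 15.5 CPM, *Epha2* at 193 CPM and *Plxna3* at 25.2 CPM.

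In CommaDB secreted cues lay on both sides of the Basal mean, and both neuropilins lay above all sorted libraries. *Sema3b* was 11.53 CPM against a Basal mean of 88.7 CPM and *Ntn4* 5.78 CPM against 50.3 CPM, both inside the range of the sorted libraries. *Sema3g*, at 0.204 CPM, lay narrowly below all sorted libraries. *Sema3a* was 365 CPM (358 to 372), where no sorted library exceeded 8.27 CPM. *Nrp1* was 265 CPM (259.6 to 271), *Nrp2* 255 CPM (249.7 to 261) and *Unc5c* 13.0 CPM (11.8 to 14.4), all above every sorted library. *Slit2* reached 405 CPM (398 to 412), and *Unc5b* 251 CPM. *Sema3a* and its co-receptor *Nrp1* were thus both far above their sorted levels in this line. Among members with at least 1 CPM in every sorted library, those furthest below by ratio were *Sema4a* at 5.92 CPM, *Sema4c* at 40.8 CPM, *Efna1* at 17.99 CPM and *Plxnb1* at 59.3 CPM. More than 4-fold above the Basal mean (on CPM + 0.5) were 9 members in CommaDB (3.67% of all genes) and 6 in mammosphere cells (6.49%), and more than 4-fold below it 13 (9.95%) and 10 (5.80%).

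**Figure D5:**
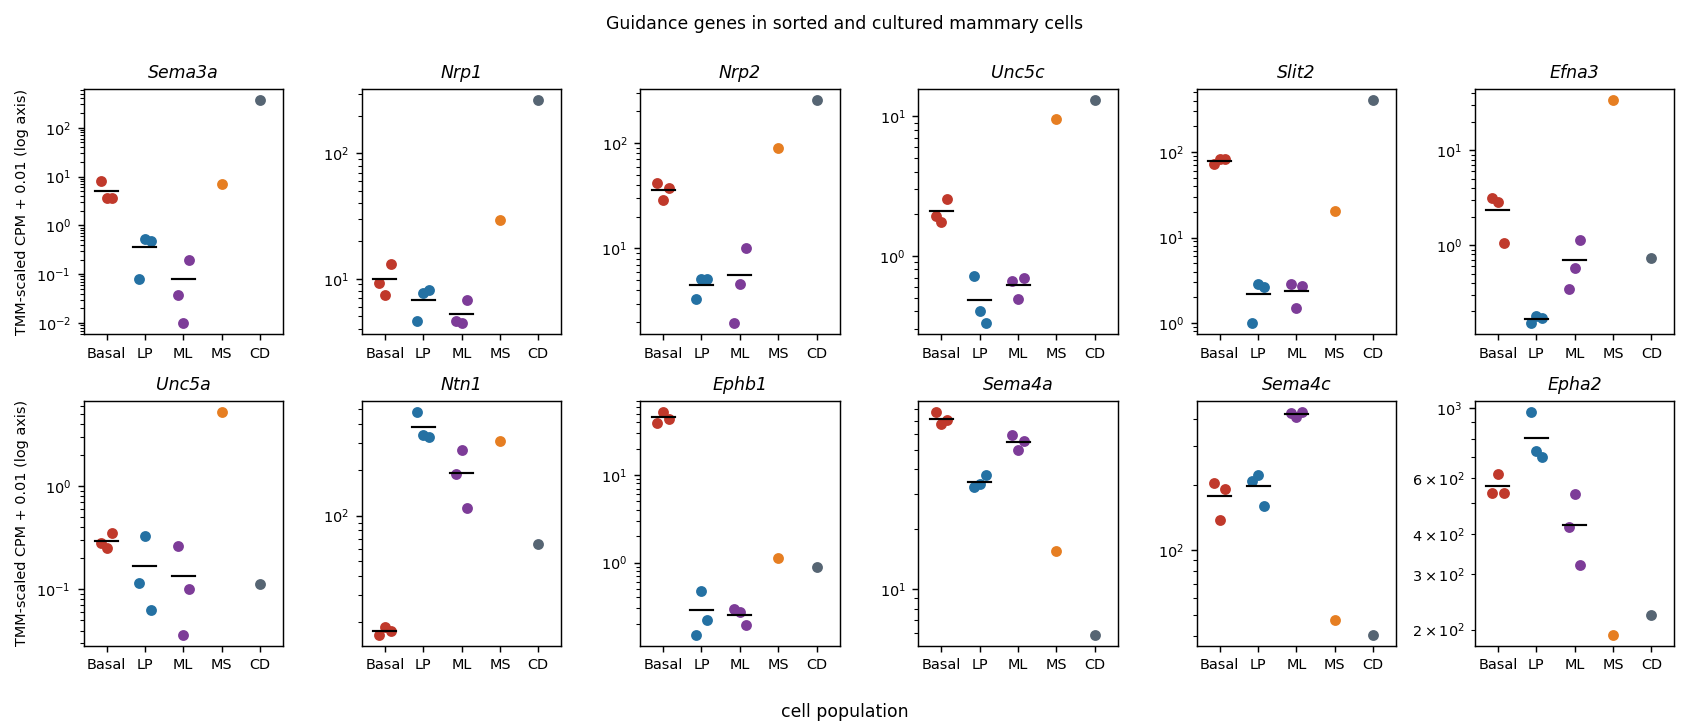
TMM-scaled CPM + 0.01 (log axis) of 12 members in Basal, LP and ML libraries and in the single mammosphere (MS) and CommaDB (CD) libraries, with lines at the means of the sorted populations. *Sema3a*, *Nrp1*, *Nrp2*, *Unc5c* and *Slit2* are highest in CommaDB, *Efna3* and *Unc5a* in mammosphere cells, and *Sema4a*, *Sema4c* and *Epha2* lie below all sorted libraries in both.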

How the data were processed

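RNA from 11 samples was sequenced, and the authors deposited raw read counts per Entrez gene with exon lengths. The submitters' processing notes name CASAVA 1.8.0, featureCounts, edgeR 3.6.2, limma 3.20.5 and the mm10/GRCm38 build, and library kit versions differed between batch 1 and the later batches. Whether counting used strand is not given in the sources used here. No column belonged to other samples.

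Genes over 0.5 CPM in at least 3 libraries (15422) were fitted in R 4.3.3 with edgeR 4.0.16 (TMM factors, quasi-likelihood, 1 coefficient per sample type, 5 in all, fitted to the 11 libraries together), with Benjamini-Hochberg adjustment over all tested genes and calls at 0.05. SEs are the log2 fold change over the root of F. Levels between genes are compared as RPKM, that is TMM-scaled CPM per kilobase of exon. The members, pairs, gene lists and motifs were chosen with earlier results of these data known. Values in every library are given for up to 10 members in each direction with the largest called, non-overlapping Basal-luminal differences, up to 4 in each direction of LP against ML, 14 listed ligands and receptors, and up to 4 furthest above and below the sorted range in each cultured library, each over 1 CPM in the higher group except the listed ones. Other members named beside them were chosen after their values were seen. The study's methods give 3 independent samples per sorted population. The labels do not give each one's animals, and p-values measure the spread between these samples. The labels give the library batches. Deviations from group means correlated at 0.320, 0.313 and 0.526 between LP and ML libraries of the same batch, and at -0.419 to 0.0861 between batches. For Basal libraries with LP or ML libraries of the same batch the correlations were lower, at -0.118 to 0.289. Batch was therefore also fitted as a block. Alternatives were no TMM scaling, DESeq2 size factors, other filters, limma voom 3.58.1, DESeq2 1.42.0, the 9 sorted libraries alone, the block and leaving out each sorted library. Omission of both sorted batch 3 libraries was added after seeing the data. The fits were tested on simulated data without a batch effect, for Basal against luminal cells. Of 50 genes each, 32 were called at a true log2 fold change of 1 and 29 at -1. All 50 were called at 2 and at 3, with 9 false calls among the unchanged genes. Members with a difference near 1 can thus lack a call.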

Additional observations from a re-analysis of the deposited data

How the results depend on the processing

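None of the called differences of the named members reversed under the alternatives run, and changes of sign without a call were not counted. Over 18 alternatives, 42 of 48 members called between Basal and luminal cells, 42 of 45 against LP, 40 of 45 against ML and 12 of 25 between LP and ML cells were called in every one. Without TMM scaling the median of all genes shifted by 0.15 (Basal against LP) and -0.17 (LP against ML) on the log2 scale. Leaving out 1 library at a time gave 39 to 42 members higher in Basal and 7 to 9 in luminal cells, 38 to 40 and 5 to 6 against LP, 35 to 37 and 7 to 9 against ML, and 8 to 14 higher in LP and 5 to 11 in ML cells. The same omissions gave 8 to 9 opposite pairs and 30 to 35 pairs higher in Basal cells. Leaving out both sorted batch 3 libraries, chosen after seeing the data, left 6 members higher in ML than LP cells. Under the stricter limits 25 members were higher in Basal and 2 in luminal cells, 23 and 2 against LP, 23 and 2 against ML, and 1 in LP and 0 in ML cells (edgeR called 10 there at an adjusted p under 0.05), with 0 opposite and 15 Basal pairs, since fewer genes pass. With library batch as a block, 41 members were higher in Basal and 7 in luminal cells, 41 and 7 against LP, 39 and 8 against ML, and 14 in LP and 10 in ML cells, and apart from the calls of *Slit3*, *Sema7a* and the gained ones given above the block changed no call.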
